A study of Komagataella phaffii GS115 with 3 samples.

Results

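Of 5040 genes measured by RNA-seq in the methylotrophic yeast Komagataella phaffii, 31 combined a high transcript level in 3 cultures with a limited difference from the untreated one. The cultures were an hmt-deficient GS115 strain grown without treatment, GS115 treated with hydrogen peroxide (H2O2) and untreated GS115, with 1 library for each. A gene was a member when its level was 500 FPKM or more in all 3 libraries and its log2 ratio to untreated GS115 lay between -0.5 and 0.5 both in the hmt-deficient strain and after H2O2. FPKM counts fragments per kilobase of a gene relative to all fragments of its library, and ratios were taken after adding 1 to each value. GS115 is a histidine auxotroph used as a host for protein production, and the titles of all 3 cultures name GS115. They do not state whether the hmt-deficient strain is still a histidine auxotroph. The labels do not state which gene hmt is, the medium, or how much H2O2 was used and for how long, and nothing in them says whether the strain is 1 clone.

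In growing yeast a small number of genes supplies much of the messenger RNA. In Saccharomyces cerevisiae these are mainly genes for ribosomal proteins, translation factors, glycolytic enzymes, chaperones and other factors every cell needs, and many of them change together in stress, with ribosomal genes lowered and stress genes raised. Abundant transcripts that keep their share of the RNA pool are used as references in quantitative PCR and as sources of constitutive promoters. H2O2 is an oxidant that yeast removes with catalase, peroxidases and the glutathione and thioredoxin systems. The tables used here pair no locus tag of a member with a gene name or product, so members are given by locus tag, without a role and without their sequences.

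The levels and both ratios to untreated GS115 chose the members, so those values are described here and not tested. A level of 500 FPKM in all 3 libraries was reached by 198 genes (3.93% of 5040). Both ratio limits were met by 1086 genes of any level (21.5%). The 31 members were 15.7% of the 198 abundant genes. A set of 7 glycolytic genes was left out by the rule, but 0 of the 7 would have passed. All 7 were abundant, and their log2 ratios of H2O2-treated to untreated ran from 1.95 to 4.01. In the hmt-deficient strain 5 of these 7 lay inside the limit, over a range of -0.40 to 0.66. With 1 library per group no difference has a replicate check, and intervals below cover counting error only. FPKM gives a transcript's share of the library, so an unchanged share need not be an unchanged amount per cell. Neither the number of cells nor RNA per cell can be read from it, and RNA content per cell was not measured.

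**Figure D1:**
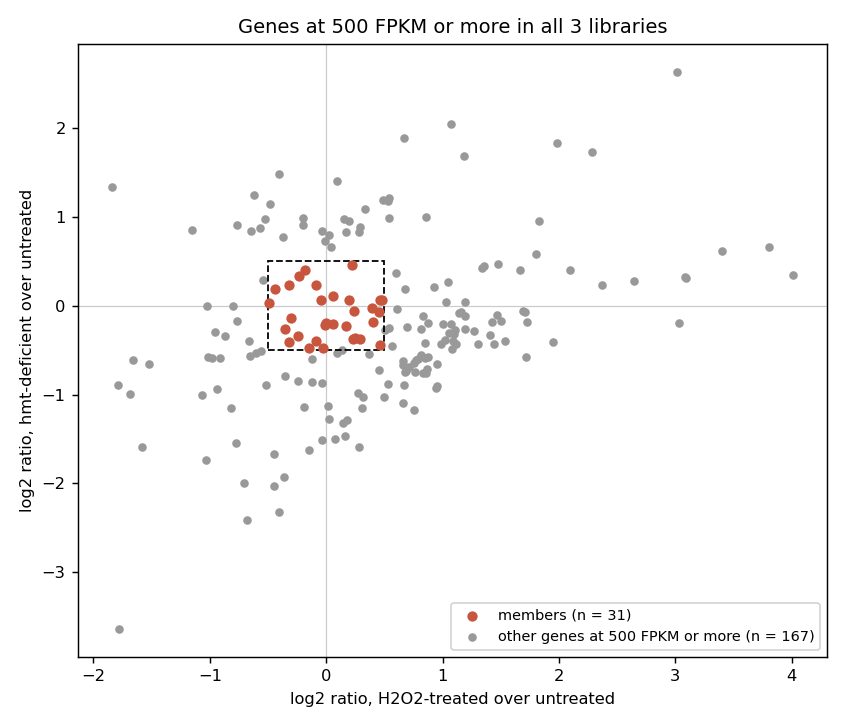
Log2 ratio of hmt-deficient to untreated (vertical) against log2 ratio of H2O2-treated to untreated (horizontal) for the 198 genes at 500 FPKM or more in all 3 libraries; each point is a gene and the dashed square marks the limits of -0.5 and 0.5. The 31 members fill the square, and of the other 167 genes 89 lie to the right of its right edge and 70 below its lower edge; both axes share the untreated library.

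The libraries were scaled to fitted totals of 18281738 fragments for the hmt-deficient, 22355448 for the H2O2-treated and 15358161 for the untreated library. Members held 2133 to 119776 fragments in the hmt-deficient, 2897 to 97246 in the H2O2-treated and 1719 to 75999 in the untreated library. At that depth the 95% counting interval of a member's ratio was between 0.012 and 0.092 wide on either side on the log2 scale. These intervals compare 2 libraries and not the conditions.

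The member with the highest mean level was PAS_chr4_0210, at 2999 FPKM in the hmt-deficient, 3282 in the H2O2-treated and 2863 in the untreated library. Its highest value was 1.15 times its lowest. PAS_chr4_0785 followed with 3512 FPKM in the hmt-deficient, 2368 in the H2O2-treated and 2781 in the untreated library. It was the highest member in the hmt-deficient strain and sixth among members after H2O2. PAS_chr3_0230 behaved alike in order, with 3319 FPKM in the hmt-deficient, 2204 in the H2O2-treated and 2507 in the untreated library. In both of these genes the H2O2-treated library was the lowest and the hmt-deficient library the highest.

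PAS_chr4_0018, with a coding length of 333 bp, stood at 3079 FPKM in the hmt-deficient, 2606 in the H2O2-treated and 2240.2 in the untreated library. Here the untreated library was the lowest. PAS_chr3_0277 stood at 2392 FPKM in the hmt-deficient, 2935 in the H2O2-treated and 2494 in the untreated library. PAS_chr3_0091 stood at 1949.8, 2992 and 2519 FPKM in the same order of libraries. In both genes the order was H2O2-treated, untreated, hmt-deficient, from high to low.

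PAS_chr3_1048 had the same order with the widest spread of any member, at 1701 FPKM in the hmt-deficient, 3176 in the H2O2-treated and 2309.7 in the untreated library. Its highest value was 1.87 times its lowest. PAS_chr2-1_0612 stood at 1894 FPKM in the hmt-deficient, 1324 in the H2O2-treated and 1858 in the untreated library, so that only the H2O2-treated library was apart. PAS_chr3_1169 showed the opposite, at 1530.1 FPKM in the hmt-deficient, 2037 in the H2O2-treated and 1463 in the untreated library. PAS_chr2-1_0218 completed the 10 highest, at 1604 FPKM in the hmt-deficient, 1288 in the H2O2-treated and 1369 in the untreated library.

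**Figure D2:**
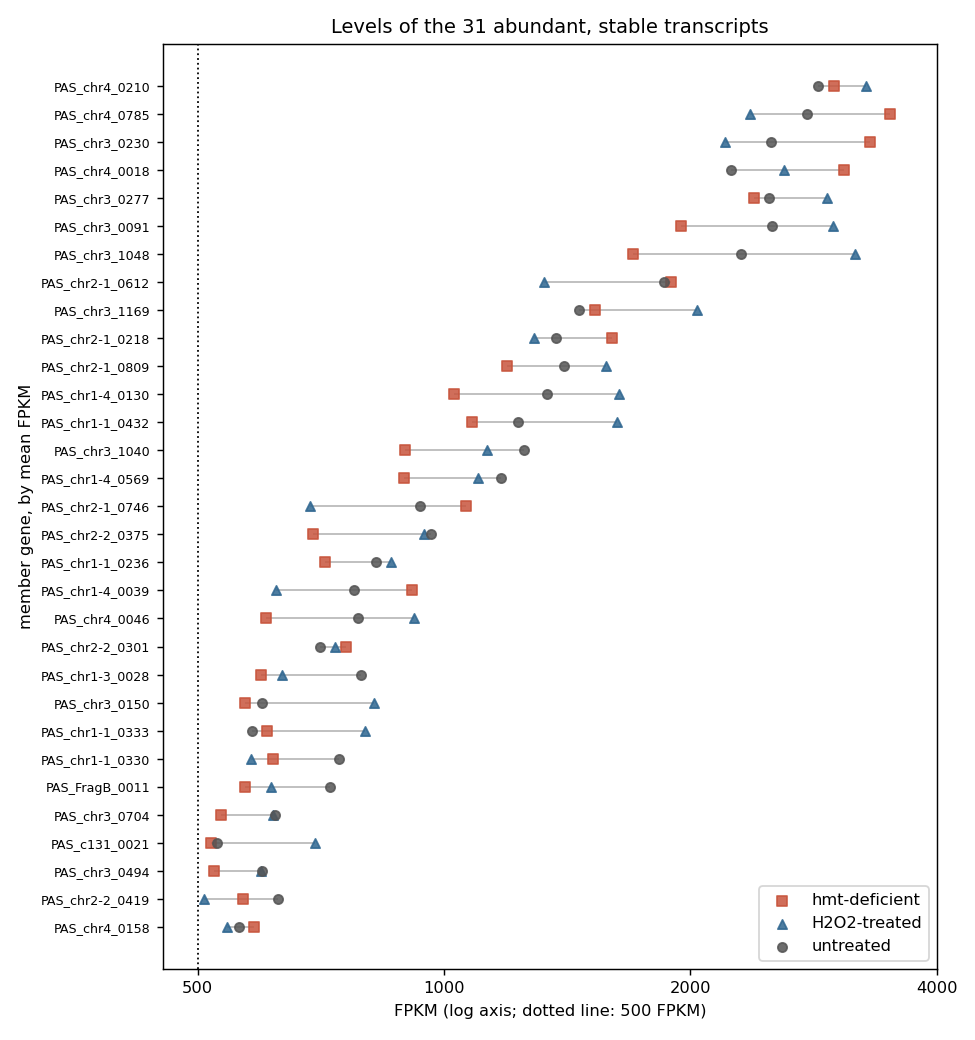
FPKM on a log axis for each of the 31 members, ordered by mean level, with squares for the hmt-deficient, triangles for the H2O2-treated and circles for the untreated library; the grey bar joins the lowest and highest value and the dotted line is 500 FPKM. Levels run from 509 to 3512 FPKM, and the bar is longest for PAS_chr3_1048.

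Across members, levels spanned 519 to 3512 FPKM in the hmt-deficient library (median 896), 509 to 3282 in the H2O2-treated library (median 944) and 529 to 2863 in the untreated library (median 964). The highest member was thus 6.77, 6.45 and 5.42 times the lowest, in that order. Within a gene, where the rule limits the spread, the highest library was a median of 1.37 times the lowest. In 5 members this ratio was under 1.2, and in 7 it was 1.5 or more. Together the members took 4.23% of summed FPKM in the hmt-deficient, 3.97% in the H2O2-treated and 3.94% in the untreated library. The other 167 abundant genes took 28.7% in the hmt-deficient, 47.5% in the H2O2-treated and 30.3% in the untreated library.

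The members whose larger ratio to untreated GS115 was smallest lay mostly low in the range of levels. PAS_chr4_0158 stood at 586 FPKM in the hmt-deficient, 543 in the H2O2-treated and 561 in the untreated library. Its log2 ratios were 0.06 for hmt-deficient and -0.05 for H2O2-treated over untreated. PAS_chr2-2_0301 stood at 759, 735 and 706 FPKM in the same order of libraries, with log2 ratios of 0.10 and 0.06. PAS_chr4_0210, the most abundant member, was also among the 6 with the smallest such ratio, at 0.07 and 0.20.

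PAS_chr3_0494 stood at 523 FPKM in the hmt-deficient, 598 in the H2O2-treated and 599 in the untreated library. PAS_chr3_0704 stood at 534, 618 and 621 FPKM in the same order. In both, H2O2-treated and untreated GS115 differed by less than counting error, at 0.998 times (95% counting interval 0.968 to 1.03) for PAS_chr3_0494 and 0.995 times (0.965 to 1.03) for PAS_chr3_0704. The hmt-deficient library was the lowest for both, at 0.874 times (0.845 to 0.903) and 0.859 times (0.832 to 0.888) untreated. PAS_chr1-1_0236 stood at 715 FPKM in the hmt-deficient, 862 in the H2O2-treated and 826.4 in the untreated library, with log2 ratios of -0.21 and 0.06 to untreated.

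The first comparison asked how the members stood after exposure to H2O2. All 31 lay within 0.5 of untreated on the log2 scale by the rule, against 36.9% of 4964 genes with 10 FPKM or more in either library, and nothing is read from that count. Their median log2 ratio was -0.0025, with values from -0.49 to 0.48. By direction 15 were higher and 16 lower than untreated, where 34.1% of all genes were higher and 65.9% lower. These counts rest on the scaling: 29 members were higher and 2 lower when ratios were centred on the median of all genes, which was -0.38. The other 167 abundant genes had a median of 0.54. Since the rule holds the members' ratios near 0, the distance of their median from these medians is set by the choice of members.

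Members at the upper end were PAS_chr3_1169, 1.39 times its untreated level after H2O2 (1.38 to 1.41), PAS_chr3_1048, 1.38 times (1.35 to 1.40), and PAS_chr1-1_0333, 1.37 times (1.30 to 1.46). PAS_chr1-1_0333 stood at 608 FPKM in the hmt-deficient, 801 in the H2O2-treated and 583 in the untreated library. Just outside it, among abundant genes that met the hmt limit, stood PAS_chr4_0115, PAS_chr1-4_0238 and PAS_FragD_0014, with log2 ratios of 0.51, 0.54 and 0.56. At the lower end PAS_chr2-1_0612 was 0.712 times its untreated level (0.689 to 0.736) and PAS_chr2-1_0746 0.734 times (0.697 to 0.774). PAS_chr2-1_0746 stood at 1064 FPKM in the hmt-deficient, 686 in the H2O2-treated and 934 in the untreated library. PAS_chr1-1_0330 was 0.781 times its untreated level (0.742 to 0.821), at 618 FPKM in the hmt-deficient, 580.5 in the H2O2-treated and 744 in the untreated library. Outside the lower limit PAS_chr1-4_0339, PAS_chr4_0680 and PAS_chr2-2_0392 had log2 ratios of -0.54, -0.66 and -0.76.

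The 95% counting interval excluded a ratio of 1 for 28 of 31 members after H2O2, a share near the 91.8% of all genes. Of these members 15 lay above 1 and 13 below, beside 30.4% and 61.4% of all genes. The interval held 1 for PAS_chr2-2_0375, PAS_chr3_0704 and PAS_chr3_0494. In 4 members after H2O2, and in 2 in the hmt-deficient strain, the interval reached across a limit of 0.5, so that counting error alone could place them on either side of the rule.

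Next, the loss of hmt was compared with untreated GS115. The rule again placed all 31 within the limit, against 50.2% of 4992 genes, and nothing is read from that count. The median log2 ratio of the members was -0.14 and the values ran from -0.48 to 0.46. Of the members 12 were higher and 19 lower, where 46.4% of all genes were higher and 53.6% lower. With the authors' normalized column for the hmt-deficient library the majority turned, with 18 higher and 13 lower. That column is FPKM times 1.14. No normalized column was given for the untreated library, so it was set against plain FPKM on an unlike scale. After rescaling to TPM 15 were higher and 16 lower. Over all genes the median was -0.07 and over the other abundant genes -0.33, neither of which was held near 0 by the rule.

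PAS_chr4_0018 was at the upper end in the hmt-deficient strain, 1.37 times its untreated level (95% counting interval 1.34 to 1.41). PAS_chr3_0230 followed with 1.32 times (1.31 to 1.34) and PAS_chr4_0785 with 1.26 times (1.25 to 1.28), all of them among the 4 most abundant members. The nearest abundant genes beyond the limit that met the H2O2 limit, PAS_chr3_0576, PAS_chr1-4_0274 and PAS_chr1-1_0217, had log2 ratios of 0.66, 0.73 and 0.77, which left a gap above the members. At the lower end PAS_chr3_1040 was 0.716 times its untreated level (0.696 to 0.737), at 896 FPKM in the hmt-deficient, 1127 in the H2O2-treated and 1251 in the untreated library. PAS_chr2-2_0375 was 0.718 times (0.692 to 0.745), at 692, 944 and 964 FPKM in that order of libraries. PAS_chr3_1048 was 0.737 times (0.722 to 0.752). Just below the limit PAS_chr2-1_0376, PAS_chr2-2_0337 and PAS_chr1-3_0229 had log2 ratios of -0.505, -0.53 and -0.54, with no such gap to the members.

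The counting interval excluded a ratio of 1 for 28 of the 31 members in the hmt-deficient strain, a share near the 88.1% of all genes. Of these 10 lay above 1 and 18 below, beside 40.6% and 47.5% of all genes. The interval held 1 for PAS_chr2-1_0612, at 1.02 times (0.987 to 1.05), for PAS_chr1-1_0333, at 1.04 times (0.978 to 1.11), and for PAS_c131_0021, at 0.982 times (0.959 to 1.01). PAS_c131_0021 stood at 519 FPKM in the hmt-deficient, 696 in the H2O2-treated and 529 in the untreated library. No member's interval held 1 in both comparisons with untreated GS115, a count of 0 out of 31. Both comparisons share the untreated library, so a deviation in that library enters both ratios of a gene.

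**Figure D3:**
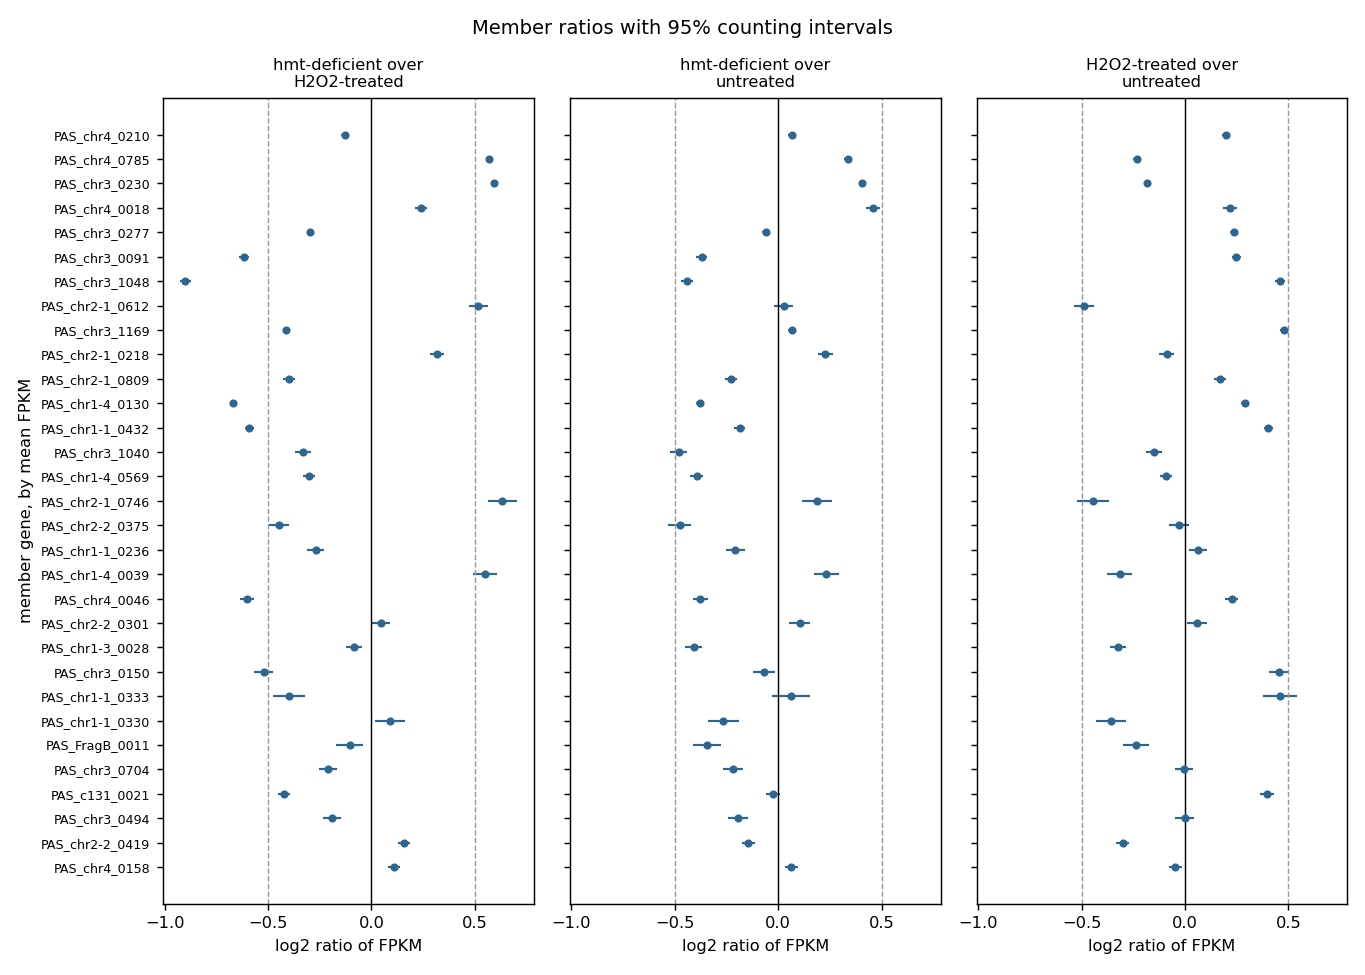
Log2 ratio of FPKM with its 95% counting interval for each of the 31 members, for hmt-deficient over H2O2-treated, hmt-deficient over untreated and H2O2-treated over untreated; dashed lines mark -0.5 and 0.5. Points stay inside the dashed lines in the comparisons with untreated by the rule, and in the panel without untreated 11 of 31 lie outside.

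Finally, the hmt-deficient and H2O2-treated cultures were compared with each other; these differ in both strain and treatment. The rule caps this ratio only through the others, at 1 on the log2 scale. Of the members 20 lay within 0.5, against 40.8% of 4966 genes and 21 of the other 167 abundant genes; as the rule limits it, this is a description. The median log2 ratio of the members was -0.21, with 11 higher and 20 lower, where 65.1% of all genes were higher and 34.9% lower. Under TPM 15 were higher and 16 lower, and with centring 5 were higher and 26 lower. The authors' normalized columns gave the same counts as TPM, since for this ratio they are the same scaling. The median of all genes was 0.34 and that of the other abundant genes -1.08. The counting interval excluded 1 for 31 of 31 members, beside 90.5% of all genes. It lay above 1 for 11 and below for 20, beside 60.4% and 30.1% of all genes. PAS_chr2-2_0301 lay closest to it, at 1.03 times its H2O2-treated level, with a lower bound that rounds to 1.00.

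PAS_chr3_1048 had the lowest of these ratios, with 0.536 times its H2O2-treated level in the hmt-deficient strain (95% counting interval 0.526 to 0.545). PAS_chr1-4_0130 was next with 0.629 times (0.621 to 0.637), at 1029 FPKM in the hmt-deficient, 1635 in the H2O2-treated and 1337 in the untreated library. With a coding length of 2121 bp it was the longest member. At the other end PAS_chr2-1_0746, the shortest member at 189 bp, was 1.55 times its H2O2-treated level (1.48 to 1.63) and PAS_chr3_0230 was 1.51 times (1.49 to 1.52). In these 4 genes the untreated library lay between the others. The rule fixes this order for any member whose ratio here lies beyond 0.5 on the log2 scale.

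The remaining 8 members fall outside the rule for named genes and are given to complete the set. PAS_chr2-1_0809 stood at 1195 FPKM in the hmt-deficient, 1576 in the H2O2-treated and 1400.2 in the untreated library. PAS_chr1-1_0432 stood at 1082, 1628 and 1232 FPKM and PAS_chr4_0046 at 605, 919 and 786 FPKM in that order. PAS_chr3_0150 stood at 572, 821 and 599.6 FPKM. In these 4 genes the H2O2-treated library was the highest and the hmt-deficient library the lowest.

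PAS_chr1-4_0569 stood at 893 FPKM in the hmt-deficient, 1101 in the H2O2-treated and 1173 in the untreated library. PAS_chr1-3_0028 stood at 597, 633 and 793 FPKM and PAS_FragB_0011 at 572, 615 and 726 FPKM in that order. In these 3 genes the untreated library was the highest. PAS_chr1-4_0039 stood at 913, 624 and 777 FPKM, with the H2O2-treated library the lowest. The limit on level cut through a continuous range: PAS_chr2-2_0419, the lowest member, had 568 FPKM in the hmt-deficient, 509 in the H2O2-treated and 627 in the untreated library. PAS_c131_0021 and PAS_chr3_0494, above, had lowest values of 519 and 523 FPKM. PAS_chr2-1_0635, PAS_chr4_0842 and PAS_chr1-1_0019 met both ratio limits but had lowest values of 499, 486 and 475 FPKM.

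Ranks within each library do not depend on how libraries are scaled. Among all 5040 genes the members ranked 15 to 355 in the hmt-deficient, 58 to 321 in the H2O2-treated and 37 to 357 in the untreated library, where 1 is the highest level. Of the 10 members with the highest mean level, 8 ranked lower after H2O2 than in untreated GS115, and 2 ranked lower in the hmt-deficient strain than in untreated GS115. Of the other 167 abundant genes 57.5% ranked lower in the hmt-deficient strain and 37.1% after H2O2. PAS_chr4_0785 ranked 15 in the hmt-deficient, 100 in the H2O2-treated and 38 in the untreated library. PAS_chr2-1_0612 ranked 56, 160 and 90 in that order, although its level differed from untreated by less than 0.5 on the log2 scale. Of the other 21 members 14 ranked lower in the hmt-deficient strain and 9 after H2O2. PAS_chr1-1_0333 had the largest gain, 111 places, ranking 222 after H2O2 and 333 in untreated GS115. PAS_chr4_0158 ranked 313, 308 and 338 in the hmt-deficient, H2O2-treated and untreated library. A ratio inside the limits could thus go with a shift in rank. Log2 ratios after H2O2 were 0.46 for PAS_chr1-1_0333, -0.49 for PAS_chr2-1_0612 and -0.23 for PAS_chr4_0785. PAS_chr4_0158, at -0.05, shifted by fewer places after H2O2 than these genes.

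**Figure D4:**
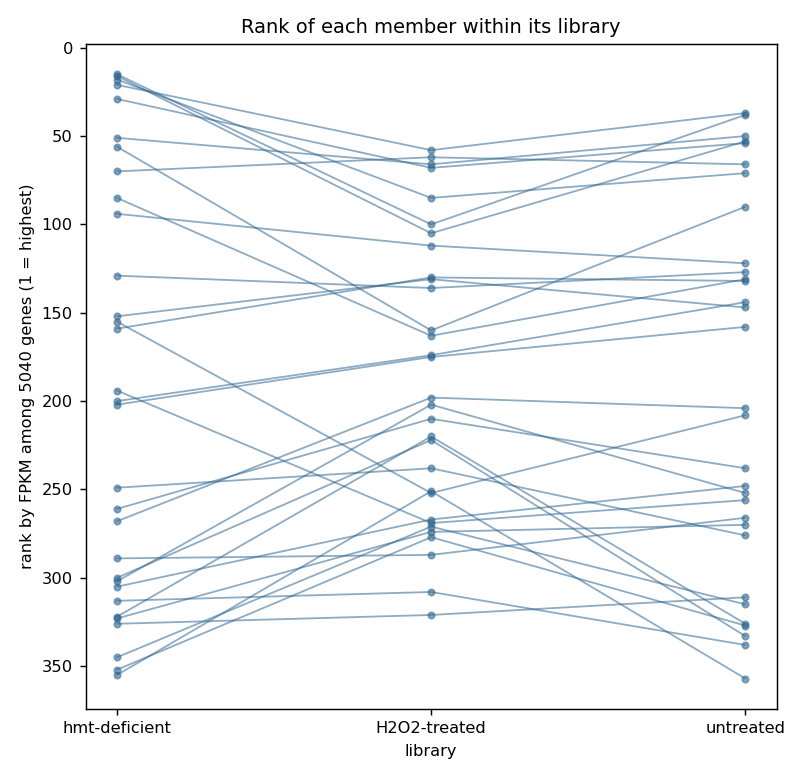
Rank by FPKM among 5040 genes (1 is the highest, at the top) of each of the 31 members in the hmt-deficient, H2O2-treated and untreated library; each line joins the values of 1 gene. The best rank of any member is 15 in the hmt-deficient, 58 in the H2O2-treated and 37 in the untreated library.

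Coding length was not used by the rule, although FPKM divides by it. The members had a median of 755 bp, the other abundant genes 588 bp and all genes 1197.5 bp. By these lengths the members were shorter than the typical gene and longer than the typical abundant gene. A complete coding sequence has a length divisible by 3. The length was not so divisible for 4 members (12.9%), 20.4% of the other abundant genes and 7.80% of all genes, and for these it is not a complete coding length. Among them are PAS_chr3_0704, whose 755 bp is the members' median, and PAS_chr2-1_0612. Coding lengths of 1500 bp or more were found for 6 members (19.4%), 11 of the other abundant genes (6.59%) and 36.4% of all genes. Of the 6, PAS_chr1-4_0130, PAS_chr3_0230, PAS_chr3_1169 and PAS_chr4_0158 are described above, and PAS_chr2-2_0419 (1581 bp) and PAS_c131_0021 (1515 bp) lay near the level limit. Coding lengths under 300 bp were found for 4 members (12.9%), 7.19% of the other abundant genes and 2.32% of all genes. The 4 members were PAS_chr2-1_0746 (189 bp), PAS_chr1-1_0333 (192 bp), PAS_chr2-1_0612 (245 bp) and PAS_chr1-1_0330 (252 bp). Their log2 ratios of H2O2-treated to untreated were -0.44, 0.46, -0.49 and -0.36 in that order, all inside the limits. Longer members also lay near a limit, such as PAS_chr3_1169 (1728 bp) at 0.48 and PAS_chr3_1048 (554 bp) at 0.46. In transcripts about as short as a sequenced fragment FPKM depends on how fragments were counted. The part of this in the values of the 4 short members was not tested.

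The 15 members shorter than 755 bp had median log2 ratios of -0.07 for hmt-deficient over untreated and -0.03 for H2O2-treated over untreated. The 16 members of 755 bp or more had -0.17 and 0.08. Direction was mixed in both, with 8 of the 15 and 11 of the 16 lower in the hmt-deficient strain. After H2O2 8 of each were lower.

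The share of genes that met both ratio limits was set beside level. With genes grouped by mean FPKM of the 3 libraries, 21.2% of 1828 genes met both limits at 10 to 50 FPKM, 24.8% of 1357 at 50 to 100, and 24.8% of 859 at 100 to 200. Above that the share was 19.4% of 532 genes at 200 to 500 FPKM, 14.5% of 172 at 500 to 1000 and 7.28% of 206 at 1000 FPKM or more. The grouping uses the same 3 values as the ratios, and a gene far higher in 1 culture is thereby moved to a higher group, so the shares are a description. Among the 167 abundant genes that were not members, 59 missed only the H2O2 limit, 44 only the hmt limit and 64 both. The H2O2 limit was passed upward by 89 and downward by 34, and the hmt limit upward by 38 and downward by 70.

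**Figure D5:**
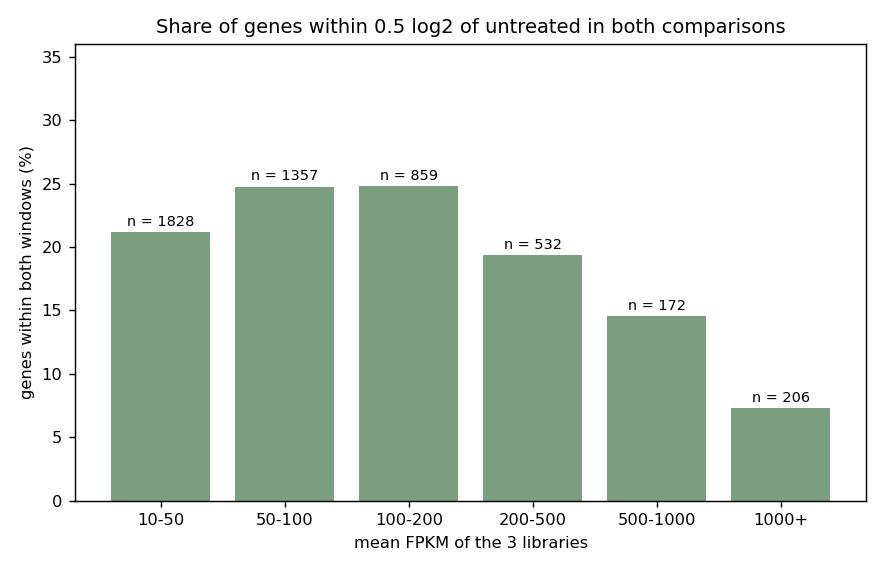
Share of genes with log2 ratios to untreated between -0.5 and 0.5 both in the hmt-deficient strain and after H2O2 (vertical, percent), for genes grouped by mean FPKM of the 3 libraries (horizontal); n is the number of genes in each bar. The share is 24.8% at 100 to 200 FPKM and 7.28% at 1000 FPKM or more.

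Which genes counted as constant depended on how the libraries were put on 1 scale. After rescaling each library to the same total (TPM), 35 genes met the rule, of which 26 were members (83.9% of the members and 74.3% of the 35). With each ratio centred on the median of all genes, 26 genes met it and 18 were members (58.1% and 69.2%). With the authors' normalized columns for the hmt-deficient and H2O2-treated libraries, 35 met it and 28 were members (90.3% and 80%). That last scaling left the H2O2 ratios as given and changed only the hmt-deficient values, by a factor of 1.14 against plain untreated FPKM. The factor brings the summed FPKM of the hmt-deficient library, 935377, to that of the H2O2-treated library, 1070995. For hmt-deficient over H2O2-treated it is thus the TPM scaling again. The 3 scalings are therefore not separate checks. A set of 13 members met the rule under all 3 scalings and as given. It held the constant members PAS_chr4_0158, PAS_chr2-2_0301, PAS_chr3_0494, PAS_chr3_0704 and PAS_chr1-1_0236, but only PAS_chr2-1_0218 of the 10 most abundant. The other 7 were PAS_FragB_0011, PAS_chr1-1_0330, PAS_chr1-3_0028, PAS_chr1-4_0039, PAS_chr1-4_0569, PAS_chr2-2_0375 and PAS_chr3_1040. PAS_chr4_0210, among the 6 most constant as given, was not among the 13.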

How the data were processed

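Each of the 3 libraries was made from ribosome-depleted total RNA and sequenced in paired ends, per the labels' protocols. The deposited values are FPKM, per the file headers. HISAT2, featureCounts, HTSeq, Trimmomatic 0.39 and FastQC 0.12.1 are listed without roles, per the submitters' processing notes. No genome build is given in the sources used here. The deposited normalized column equals FPKM for all 5040 genes after H2O2 and is FPKM times 1.14 in the hmt-deficient library.

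Locus tags were joined across the files, and all 5040 matched the RefSeq table of ASM2700v1. That table gave only gene order and the lengths used here as coding lengths. It repeats the locus tag as symbol, so 18 keyword lists of products matched 0 genes. FPKM times coding length gave whole fragments (within 0.1) for 96.8% of 1597, 96.3% of 1132 and 96.8% of 3555 checked genes in the hmt-deficient, H2O2-treated and untreated library. Of the 27 members with a length divisible by 3, 24 came out whole untreated, and of the other 4 members 1; fragment counts of the rest are approximate. Ratios used a pseudocount of 1, and comparisons over all genes a minimum of 10 FPKM in either library. Intervals are exact 95% (Clopper-Pearson) intervals and cover counting error only. Python 3.11.15, pandas 2.3.3 and scipy 1.17.1 were used, and the scripts were tested on simulated data. No test was run.

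Named genes were the 10 members with the highest mean, the 6 with the smallest larger ratio, the 3 nearest each limit on either side and the 2 at each end of the hmt-deficient to H2O2-treated ratio. Together these named 23 members. Members and lists were chosen with earlier results of these data known.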

Additional observations from a re-analysis of the deposited data

How the results depend on the processing

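With 1 library per group no replicate could be left out. No paired analysis was possible because each group holds 1 library. The number of members, 31 as given, was 70 at a minimum of 300 FPKM, 13 at 1000 FPKM, 9 with a window of 0.3 and 104 with a window of 1, by construction of those limits. Pseudocounts of 0.1 and 10 gave the same 31 genes and medians within 0.01. Median log2 ratios of the members for hmt-deficient over H2O2-treated, hmt-deficient over untreated and H2O2-treated over untreated were -0.21, -0.14 and -0.0025 as given. They were -0.016, -0.021 and -0.075 after TPM rescaling, and -0.55, -0.077 and 0.38 when centred on all genes. With the authors' normalized columns the hmt-deficient medians were -0.016 over H2O2-treated, which is the TPM scaling again, and 0.051 over untreated. The ratio to untreated used plain untreated FPKM, which has no normalized column, and so mixes unlike scales. Without the 4 members under 300 bp, an alternative chosen after seeing the data, the medians were -0.27, -0.19 and 0.058. Centring moved 14 of 31 members to the other side of 0 after H2O2, by construction. The 20 highest genes of each library, 45 in all, included the members PAS_chr4_0785, PAS_chr3_0230 and PAS_chr4_0018. Without these 45 genes the members left held 3.77%, 4.23% and 3.87% of summed FPKM in the hmt-deficient, H2O2-treated and untreated library. These shares leave out those members and so are not of the same set as the shares above. The members' median coding length was -442.5 bp from that of all genes but 167 bp above that of other abundant genes, which compares them with another set. Depth set no limit at these levels beyond the counting intervals given.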

Other observations

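The genes next to the members along the chromosomes, in the order of the reference table, were not part of the rule. They numbered 62, and 0 of them were members. Both ratio limits were met by 12 of the 62 (19.4%), beside 21.5% of all genes, and 2 (3.23%) were at 500 FPKM or more in all 3 libraries, beside 3.93%. Median FPKM of the adjacent genes was 54.6 in the hmt-deficient, 52.3 in the H2O2-treated and 73.0 in the untreated library. Their median log2 ratios to untreated were -0.21 for hmt-deficient and -0.50 for H2O2-treated. The 2 abundant neighbours were named after their values were seen. As abundant genes that were not members, both missed a ratio limit by the rule, so their contrast with the members is set by it. PAS_chr1-4_0570, next to PAS_chr1-4_0569, stood at 9962 FPKM in the hmt-deficient, 5074 in the H2O2-treated and 2408 in the untreated library, while PAS_chr1-4_0569 stayed between 893 and 1173 FPKM. PAS_chr4_0208, next to PAS_chr4_0210, stood at 1593, 4180.2 and 2419.6 FPKM in that order.

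Between members that follow each other on a chromosome there was a median of 98 genes; no background spacing was computed. PAS_chr3_0230 and PAS_chr3_1169 had 2 genes between them, and PAS_chr1-1_0330 and PAS_chr1-1_0333 had 3. PAS_chr3_1040 and PAS_chr3_1048 had 6. As given, the members of each of these pairs differed from untreated in opposite directions after H2O2. Log2 ratios were -0.19 for PAS_chr3_0230, 0.48 for PAS_chr3_1169, -0.36 for PAS_chr1-1_0330 and 0.46 for PAS_chr1-1_0333. They were -0.15 for PAS_chr3_1040 and 0.46 for PAS_chr3_1048. With ratios centred on the median of all genes, all of them were higher than untreated, from 0.027 for PAS_chr1-1_0330 to 0.86 for PAS_chr3_1169.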
